A study of Mus musculus with 67 samples.

Results

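The 38 genes described here encode the aminoacyl-tRNA synthetases of the mouse, measured in liver RNA. They are the protein-coding genes of the GENCODE M21 annotation whose symbol is the letter of an amino acid followed by "ars", with both subunit genes of the phenylalanyl enzyme, the fused glutamyl-prolyl gene Eprs and the threonyl-like gene Tarsl2, and they were taken from 55450 annotated genes. By the ending of the symbol, 20 count as cytosolic and 17 as mitochondrial. Tarsl2, whose symbol also ends in 2 but whose product is a cytosolic threonyl-tRNA synthetase-like enzyme, was kept apart. Gars and Kars each give both a cytosolic and a mitochondrial enzyme and are counted as cytosolic.

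The study sequenced liver RNA of mice that the labels call Sesn2 DKO, and the design text Sestrin DKO, and of wild-type (WT) mice, fed a leucine-free or a control diet. At day 1, labelled 24 hours, there were 18 DKO leucine-free, 8 DKO control, 12 WT leucine-free and 7 WT control libraries. At day 8 there were 6 DKO leucine-free, 5 DKO control, 6 WT leucine-free and 5 WT control libraries. Each of the 67 libraries carries its own mouse number within its group. The labels used here do not state the age or sex of the mice or which exons were deleted. In the counts, 4 Y-linked genes summed to at most 1 in any library. No Xist counts were found in 1 library, DKO leucine-free replicate 1 at day 1. Sestrins are stress-induced proteins that bind GATOR2, and Sestrin2 is known as a leucine sensor of the mTORC1 pathway.

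An aminoacyl-tRNA synthetase joins one amino acid to its tRNA, the step that supplies charged tRNA to the ribosome. Cytosolic and mitochondrial translation use separate enzymes for most amino acids, all encoded in the nucleus. When an amino acid is scarce, uncharged tRNA activates the kinase GCN2 (Eif2ak4), which leads to more ATF4 protein, a transcription factor that is known in cultured cells to induce many cytosolic synthetase genes together with amino acid synthesis and transport genes. Several of the cytosolic enzymes are held with scaffold proteins in a multi-synthetase complex.

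The known core of the ATF4 response element was looked for in the promoters, and the windows that hold it are shown because the genes that carry it are among those described below. RefSeq promoter windows (GRCm38.p6, 250 bases before to 50 after the start) were present for 28 of the 38 genes: 13 cytosolic, 14 mitochondrial and Tarsl2. The 8 letters TGATGNAA, on either strand, stood in the windows of Aars, Gars, Iars, Tars and Yars, which are 5 of the 13 cytosolic genes (38.5%), and in 0 of the 14 mitochondrial genes. Over all 27025 genes with a window the share was 4.51%. The stricter letters TGATGCAA stood in 4 of the 13 cytosolic windows (30.8%), those of Aars, Iars, Tars and Yars, against 1.03% of all genes. The 5 windows are given 5′ to 3′ on the strand of the gene, with each match in capitals; TTGCATCA and TTTCATCA are matches on the opposite strand. In Aars (chr8:111033592-111033891, plus strand) the first bases of the matches lay at -112 and +10 from the start, in Gars (chr6:55037751-55038050, plus strand) at -30, in Iars (chr13:49681880-49682179, plus strand) at +8, in Tars (chr15:11399609-11399908, minus strand) at -15 and in Yars (chr4:129189653-129189952, plus strand) at +4.
Aars: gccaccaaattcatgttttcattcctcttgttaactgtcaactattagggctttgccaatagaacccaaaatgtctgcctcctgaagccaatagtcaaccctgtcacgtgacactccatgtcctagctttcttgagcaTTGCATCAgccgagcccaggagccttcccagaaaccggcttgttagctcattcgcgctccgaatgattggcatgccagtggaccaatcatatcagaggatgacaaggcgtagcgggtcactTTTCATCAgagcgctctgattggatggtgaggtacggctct
Gars: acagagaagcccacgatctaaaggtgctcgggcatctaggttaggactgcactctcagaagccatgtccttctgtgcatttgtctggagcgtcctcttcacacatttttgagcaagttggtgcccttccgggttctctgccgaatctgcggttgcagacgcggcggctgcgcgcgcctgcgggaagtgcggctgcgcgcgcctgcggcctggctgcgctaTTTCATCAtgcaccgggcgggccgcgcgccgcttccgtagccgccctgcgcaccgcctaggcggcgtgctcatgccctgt
Iars: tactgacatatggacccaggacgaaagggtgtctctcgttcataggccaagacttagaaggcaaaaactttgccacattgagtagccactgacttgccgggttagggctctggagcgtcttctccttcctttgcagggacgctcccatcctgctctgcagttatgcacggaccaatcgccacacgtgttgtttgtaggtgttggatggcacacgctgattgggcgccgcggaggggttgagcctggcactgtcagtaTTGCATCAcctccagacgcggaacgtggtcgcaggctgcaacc
Tars: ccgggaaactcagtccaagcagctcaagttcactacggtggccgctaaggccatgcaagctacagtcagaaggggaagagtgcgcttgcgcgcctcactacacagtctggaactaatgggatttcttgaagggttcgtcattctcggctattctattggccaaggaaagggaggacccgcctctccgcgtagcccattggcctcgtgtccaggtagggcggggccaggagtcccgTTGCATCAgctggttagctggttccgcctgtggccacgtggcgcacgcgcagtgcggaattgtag
Yars: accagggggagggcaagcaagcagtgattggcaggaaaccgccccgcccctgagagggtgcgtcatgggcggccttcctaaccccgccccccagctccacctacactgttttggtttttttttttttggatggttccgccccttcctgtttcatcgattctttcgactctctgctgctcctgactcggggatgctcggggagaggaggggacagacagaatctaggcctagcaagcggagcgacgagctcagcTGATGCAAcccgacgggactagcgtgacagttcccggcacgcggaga
A match is a description of these letters and not a bound site. The windows of the other cytosolic genes, Dars, Eprs, Farsa, Farsb, Kars, Mars, Qars and Sars, held none of these letters. Among the cytosolic genes, Cars, Hars, Lars, Nars, Rars, Vars and Wars had no window.

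The libraries held 22814668 to 56916009 counts each, and the lowest count of any of the 38 genes in a library was 60. All 38 passed the expression filter, which kept 16908 genes. The marker genes of the set were present in every library: Aars at 109 to 373 CPM (counts scaled to library size), Cars at 15.4 to 60.6 CPM and Vars at 29.1 to 76.2 CPM. The hepatocyte markers were high, with Alb at 30930 to 96010 CPM in DKO and 55720 to 104800 CPM in WT libraries. Sesn1 stood at 3.49 to 7.68 CPM in the 37 DKO and 9.24 to 22.2 CPM in the 30 WT libraries, without overlap, whereas Sesn2 counts were not lower in DKO (10.6 to 36.9 CPM) than in WT libraries (9.60 to 19.6 CPM). A gene counted as called had an edgeR adjusted p under 0.05 over all genes tested. Changes are log2 fold changes with their standard error (SE), and other errors are standard deviations (SD). In a piece of liver, fewer cells of a type and less RNA per cell cannot be told apart.

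Compared per length of exon, cytosolic synthetase RNAs were more abundant than mitochondrial ones. The median level, as the mean of the 8 group means, was 11.1 FPKM (counts scaled to library size and exon length) for the 20 cytosolic genes, with a range of 5.23 to 33.1 FPKM. For the 17 mitochondrial genes it was 4.21 FPKM, with a range of 0.386 to 10.2 FPKM. Tars, threonyl-tRNA synthetase, averaged 33.1 FPKM, Nars, the asparaginyl enzyme, 31.3 FPKM, and Aars, the alanyl enzyme, 29.4 FPKM. Their group means, 28.0 to 38.8, 26.8 to 38.9 and 23.6 to 36.3 FPKM, overlapped, so their order is not fixed, while the next gene, Mars, the methionyl enzyme, had group means of 16.3 to 22.7 FPKM. Mars2, the mitochondrial methionyl enzyme, was lowest at 0.386 FPKM. The highest mitochondrial value, 10.2 FPKM for Lars2, rests on a few libraries described below, and without Lars2 the highest was 8.38 FPKM for Iars2.

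**Figure D1:**
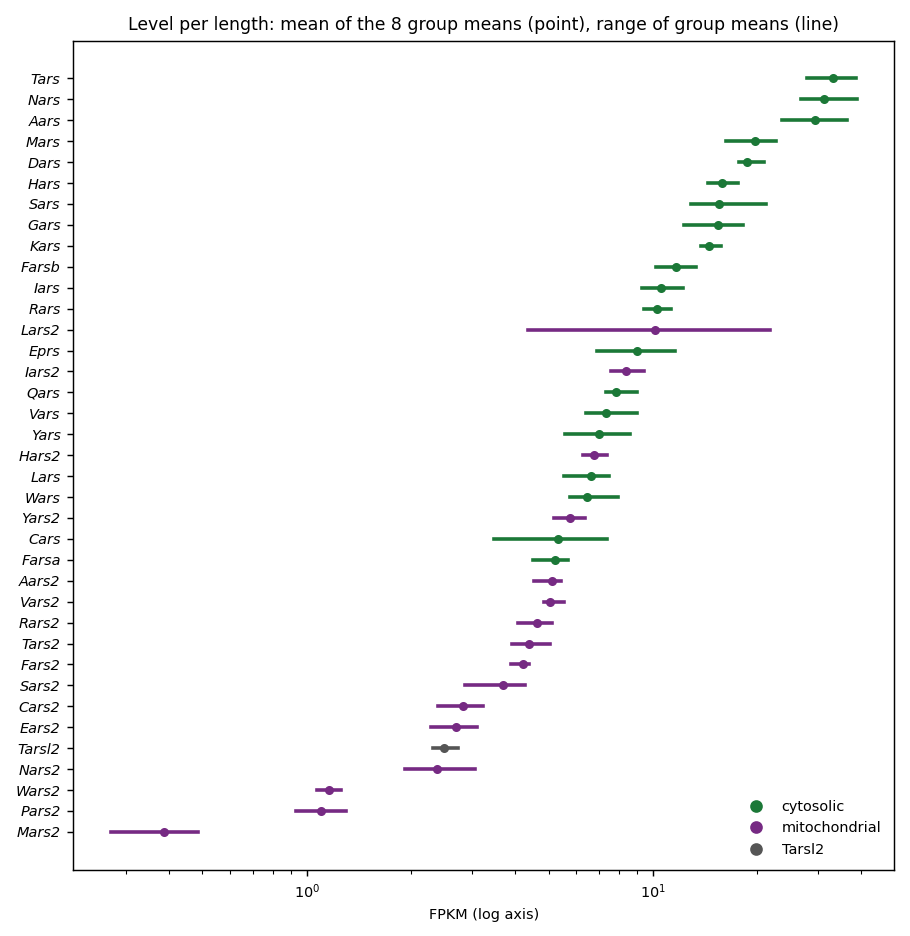
Level per length of 37 synthetase genes in FPKM (log axis), as the mean of the 8 group means (point) with the range of the group means (line), coloured by class. Cytosolic genes fill the top, led by Tars at 33.1 FPKM, and Mars2 lies lowest at 0.386 FPKM; the widest line is that of Lars2.

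Within amino acids the cytosolic gene was mostly the higher one. Each mitochondrial gene was set against the cytosolic gene for its amino acid, which gives 17 pairs with Eprs used for both glutamate and proline. For phenylalanine, Farsa (5.23 FPKM) was used and the other subunit gene, Farsb (11.7 FPKM), was not. Averaged over the 8 groups, the log2 ratio per length was above 0 in all 17 pairs; in single groups it was below 0 for Lars over Lars2 in 3 groups and for Yars over Yars2 in DKO leucine-free livers at day 8 (-0.08). The log2 ratio was largest for Mars over Mars2, a ratio of 52.4, followed by Nars over Nars2 at 13.1. The lengths are those of all annotated exons merged, 11294 bases for Mars2 and 3423 for Mars, so such ratios depend on the annotation. The ratio was smallest for Lars over Lars2 at 1.07, followed by Yars over Yars2 at 1.195. For Lars2 a few libraries reversed it, and on plain means Lars2 stood higher (10.2 FPKM) than Lars (6.65 FPKM).

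Leucine-free food for 1 day lowered synthetase RNAs of both classes, by small amounts, in both genotypes. In DKO livers 12 of the 20 cytosolic genes fell and 0 rose, and 8 of the 17 mitochondrial genes fell and 0 rose. Of all genes tested 23.5% were called in this comparison, 13% of all genes lower. In WT livers 11 cytosolic and 6 mitochondrial genes fell and 0 rose, where 19.5% of all genes were called and 11.2% called lower. The 6 include Lars2, whose change rests on WT control replicates 1 and 3, as described below. The median change of the cytosolic genes was -0.23 in DKO and -0.29 in WT livers, and that of the mitochondrial genes -0.19 in DKO and -0.17 in WT livers, beside medians over all genes of 0.02 in DKO and 0.01 in WT livers. Estimates were below 0 for 34 of 38 genes in DKO and 33 of 38 in WT livers, against 46.6% and 48.1% of all genes. The plot of the diet response shows this as a shift of most points to the left of 0 at day 1.

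**Figure D2:**
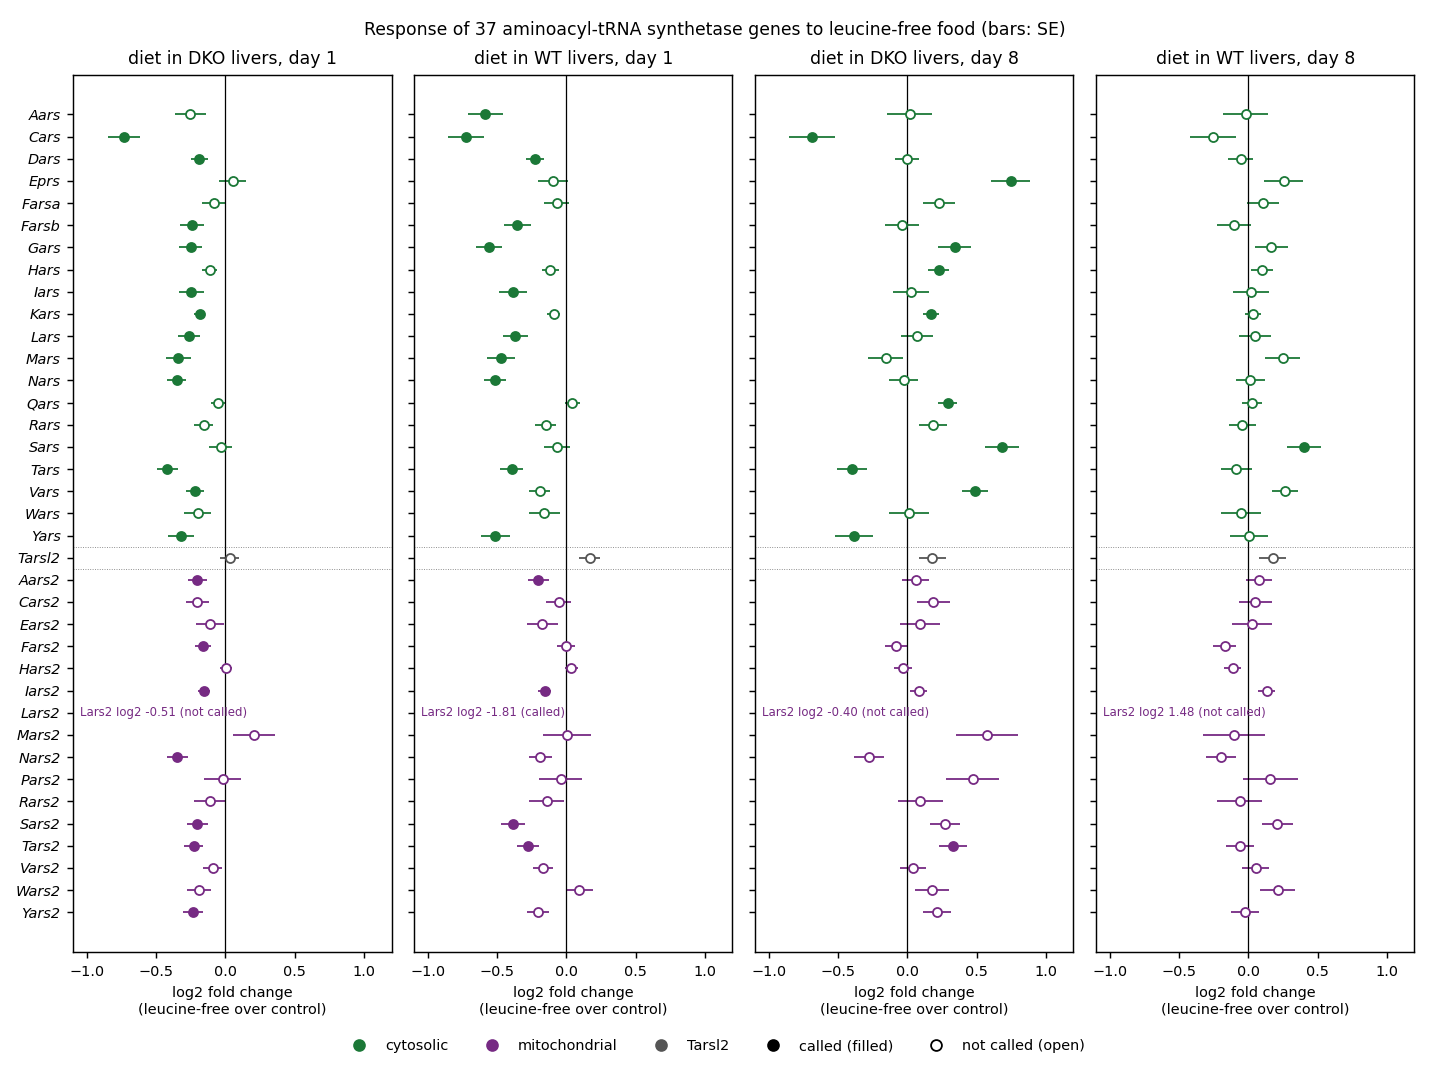
Log2 fold change of 37 synthetase genes, leucine-free over control, with its SE (bar), in DKO and WT livers at day 1 and day 8; filled points passed the test, and Lars2 is given as a number because it lies off the axis or has a wide error. At day 1 called points lie below 0 in both genotypes, and at day 8 called points lie on both sides in DKO livers, with Sars alone called in WT livers.

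Cars, which charges tRNA with cysteine, fell most among the cytosolic genes at day 1. Its levels were 16.6 to 39.7 CPM (median 26.9) in DKO leucine-free and 37.8 to 60.6 CPM (median 45.7) in DKO control livers. In WT livers they were 21.8 to 40.2 CPM (median 28.7) on leucine-free and 37.6 to 57.6 CPM (median 50.5) on control food. In each genotype the groups overlapped only at their edges. The change was -0.73 ± 0.11 (adjusted p = 8.17e-07) in DKO and -0.72 ± 0.13 (adjusted p = 2.15e-05) in WT livers, and it was called under each of the 10 alternatives in either genotype.

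The genes with the highest levels fell as well. Tars stood at 140.5 to 203 CPM (median 171) in DKO leucine-free and 184 to 248 CPM (median 236) in DKO control livers, a change of -0.42 ± 0.08 (adjusted p = 1.43e-05). In WT livers it was at 120.5 to 240.4 CPM (median 154) on leucine-free and 191 to 282 CPM (median 203) on control food, a change of -0.40 ± 0.09 (adjusted p = 0.000391). Nars fell by 0.35 ± 0.07 in DKO (adjusted p = 8.98e-05) and by 0.51 ± 0.08 in WT livers (adjusted p = 1.32e-06). Nars averaged 133 ± 17.8 CPM in DKO leucine-free and 169.6 ± 17.8 CPM in DKO control livers, and 117 ± 13.1 CPM in WT leucine-free and 166.5 ± 17.4 CPM in WT control livers (SD, n = 18, 8, 12 and 7). The lowest and highest libraries of the diets still overlapped for both genes in both genotypes.

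Aars passed the test in WT livers alone at day 1. It stood at 154 to 373 CPM (median 279.5) in DKO leucine-free and 286 to 373 CPM (median 341) in DKO control livers, an uncalled change of -0.25 ± 0.11 (adjusted p = 0.0981). In WT livers it was at 109 to 344 CPM (median 207) on leucine-free and 283 to 356 CPM (median 333) on control food, a change of -0.59 ± 0.13 (adjusted p = 0.000386). Aars varied widely on leucine-free food, so the ranges overlapped in both genotypes, and the difference between the genotypes in this response was not called (0.33 ± 0.17, adjusted p = 0.899). Gars, the glycyl enzyme, fell by 0.25 ± 0.08 in DKO (adjusted p = 0.0209, and 0.00556 to 0.0926 over 10 alternatives, 2 of which ended the call) and by 0.56 ± 0.09 in WT livers (adjusted p = 5.08e-06). In WT livers its libraries did not overlap, with 31.0 to 49.9 CPM on leucine-free and 53.5 to 60.0 CPM on control food. Aars shares 1326 exon bases, 14.3% of its length, with Exosc6 on the same strand, so the assignment of reads from that stretch is uncertain.

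Smaller day 1 changes were called for further cytosolic genes. Mars fell by 0.34 ± 0.09 in DKO and 0.47 ± 0.10 in WT livers, and Yars, the tyrosyl enzyme, by 0.32 ± 0.09 in DKO and 0.51 ± 0.11 in WT livers. Lars, the leucyl enzyme of the cytosol, fell by 0.26 ± 0.08 in DKO (adjusted p = 0.0108) and by 0.37 ± 0.09 in WT livers (adjusted p = 0.00172). Dars, Farsb and Iars also fell in both genotypes, by 0.19 to 0.38; in DKO livers 2, 3 and 4 of 10 alternatives ended these calls. Kars, the lysyl enzyme, and Vars, the valyl enzyme, fell in DKO livers, by 0.19 ± 0.04 and 0.22 ± 0.06; in WT livers the estimates were -0.09 ± 0.05 and -0.19 ± 0.07 (adjusted p = 0.154 and 0.0501). The adjusted p of Vars in DKO livers reached 0.0645 under 1 of 10 alternatives. Vars stood at 31.7 to 42.9 CPM (median 37.97) in DKO leucine-free and 36.7 to 49.1 CPM (median 44.98) in DKO control livers, which overlapped. Mars shares 68 exon bases with Ddit3 on the opposite strand and Farsb shares 248 with Sgpp2; no source used here states whether strand entered the counting. Eprs, Farsa, Hars, Qars, Rars, Sars and Wars were called in neither genotype at day 1.

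Among the mitochondrial genes, Nars2, the asparaginyl enzyme, fell in DKO livers at day 1. It stood at 12.95 to 21.02 CPM (median 16.6) in DKO leucine-free and 18.0 to 25.9 CPM (median 20.96) in DKO control livers, and at 14.0 to 19.0 CPM (median 16.6) in WT leucine-free and 16.7 to 23.8 CPM (median 17.6) in WT control livers. The diets overlapped in both genotypes. The change was -0.35 ± 0.07 in DKO (adjusted p = 0.000191, and 1.93e-05 to 0.0151 over 10 alternatives) and -0.19 ± 0.08 in WT livers (adjusted p = 0.1, not called). Iars2, Sars2, Tars2 and Aars2 fell in both genotypes, by 0.16 to 0.23 in DKO and 0.16 to 0.39 in WT livers. Yars2 and Fars2 fell in DKO livers, by 0.23 and 0.16. Sars2 in DKO livers lay near the threshold: its adjusted p was 0.0495, and it ran from 0.00419 to 0.256 over the 10 alternatives. Single alternatives also ended the DKO calls of Iars2, Tars2 and Yars2 (adjusted p up to 0.0593, 0.134 and 0.0871), 2 ended that of Aars2 and 3 that of Fars2. In WT livers 2 ended the call of Iars2 and 6 that of Aars2. Iars2 shares 22.9% of its exon bases with Rab3gap2 on the opposite strand, so without strand these reads cannot be told apart.

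After 8 days the DKO livers no longer showed a common direction. In the cytosolic class 7 of 20 genes rose on leucine-free food, Eprs, Sars, Vars, Gars, Qars, Hars and Kars, and 3 fell, Cars, Tars and Yars. In the mitochondrial class edgeR called 1 of 17, Tars2, higher and 0 lower. Of those 17, 6 had an unadjusted p under 0.05, DESeq2 called 2 higher, and limma voom 2 higher and 1 lower. Over all genes tested 20.6% were called, 11.1% higher and 9.51% lower. The median changes, 0.05 for the cytosolic, 0.09 for the mitochondrial and 0.01 for all genes, do not show the cytosolic split. In WT livers 1 cytosolic gene, Sars, rose (2.38% of all genes called higher), and edgeR called 0 of the 17 mitochondrial genes, where 5.25% of all genes were called; of those 17, 3 had an unadjusted p under 0.05, DESeq2 called 0 and limma voom 1.

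Sars, which charges tRNA with serine, rose in both genotypes at day 8. It stood at 94.0, 96.8, 81.5, 102, 83 and 199 CPM in DKO leucine-free and 68.6, 74.7, 72.6, 62.2 and 63.0 CPM in DKO control livers. In WT livers it was at 78.3, 76.9, 83.6, 94.6, 106 and 86.9 CPM on leucine-free and 75.6, 65.9, 67.4, 62.4 and 59.8 CPM on control food. In each genotype every leucine-free library lay above every control library, and DKO leucine-free replicate 6 lay far above the rest. The change was 0.68 ± 0.12 in DKO livers (adjusted p = 2.05e-05) and stayed called under each of 21 alternatives. In WT livers it was 0.40 ± 0.12 (adjusted p = 0.035, and 0.000908 to 0.103 over 21 alternatives). The WT call was lost, with adjusted p of 0.0668 to 0.103, when any one of WT control replicates 2, 3, 4 or 5 or of WT leucine-free replicates 4 or 5 was left out.

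Eprs, the fused glutamyl-prolyl enzyme of the multi-synthetase complex, had the largest rise in DKO livers at day 8. It stood at 122.9, 266, 172, 228, 158 and 315 CPM in DKO leucine-free and 133, 126, 124, 113 and 130.1 CPM in DKO control livers. Of the 6 leucine-free libraries, 5 lay above all controls and replicate 1 lay among them. The change was 0.75 ± 0.14 (adjusted p = 5.02e-05) in DKO and 0.26 ± 0.14 (adjusted p = 0.301) in WT livers.

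Vars, the valyl enzyme, which binds an elongation factor, and Qars, the glutaminyl enzyme of that complex, rose too. Vars stood at 43.1, 49.0, 47.4, 49.5, 38.5 and 76.2 CPM in DKO leucine-free and 38.3, 39.3, 36.8, 32.2 and 33.5 CPM in DKO control livers, a change of 0.49 ± 0.09 (adjusted p = 6.38e-05). Replicate 5 alone of the leucine-free libraries fell within the controls. Qars stood at 59.3, 64.6, 51.7, 53.7, 57.1 and 67.5 CPM in DKO leucine-free and 49.6, 49.5, 45.8, 45.5 and 50.5 CPM in DKO control livers, without overlap, a change of 0.29 ± 0.07 (adjusted p = 0.00139). In WT livers the estimates were 0.26 ± 0.09 for Vars (adjusted p = 0.0859) and 0.03 ± 0.07 for Qars (adjusted p = 0.883).

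The remaining rises in DKO livers at day 8 were smaller. Gars rose by 0.34 ± 0.12 (adjusted p = 0.0349), Hars, the histidyl enzyme, by 0.23 ± 0.08 (adjusted p = 0.0307) and Kars by 0.17 ± 0.06 (adjusted p = 0.0306). The Gars, Kars and Hars calls were lost under 12, 11 and 7 of 21 alternatives. Leaving out DKO leucine-free replicate 6 gave 0.15 (adjusted p = 0.353) for Gars, 0.12 (adjusted p = 0.141) for Kars and 0.21 (adjusted p = 0.0537) for Hars. The Hars call also ended without DKO leucine-free replicate 2 or DKO control replicate 1, 3 or 5. For Gars and Kars, leaving out DKO leucine-free replicate 4 or DKO control replicate 1, 3 or 5 also ended both calls (adjusted p = 0.0516 to 0.0839), as did DKO control replicate 2 for Gars (0.0699) and DKO leucine-free replicate 2 for Kars (0.1). Over all alternatives the adjusted p ran from 0.00549 to 0.354 for Gars, from 0.00795 to 0.214 for Kars and from 0.0125 to 0.0967 for Hars.

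Cars, Tars and Yars were lower in DKO livers at day 8 as at day 1. Cars stood at 31.5, 15.4, 26.1, 18.6, 17.6 and 28.1 CPM in DKO leucine-free and 37.2, 40.9, 41.0, 34.5 and 31.1 CPM in DKO control livers, a change of -0.69 ± 0.17 (adjusted p = 0.00175). The groups met only where leucine-free replicate 1 reached the lowest control. Tars stood at 146, 165.5, 151, 171, 151.5 and 205 CPM in DKO leucine-free and 233, 208, 205, 237 and 206 CPM in DKO control livers, a change of -0.40 ± 0.11 (adjusted p = 0.00557). Leucine-free replicate 6 alone reached the controls. Yars fell by 0.39 ± 0.14 (adjusted p = 0.034, and 0.00831 to 0.0887 over the alternatives); its call was lost when DKO control replicate 1, 2, 3 or 4 or leucine-free replicate 2, 3, 4 or 5 was left out (adjusted p = 0.0521 to 0.0887). In WT livers the estimates were -0.26 ± 0.17 for Cars (adjusted p = 0.415), -0.09 ± 0.11 for Tars (adjusted p = 0.725) and 0.01 ± 0.14 for Yars (adjusted p = 0.986).

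**Figure D3:**
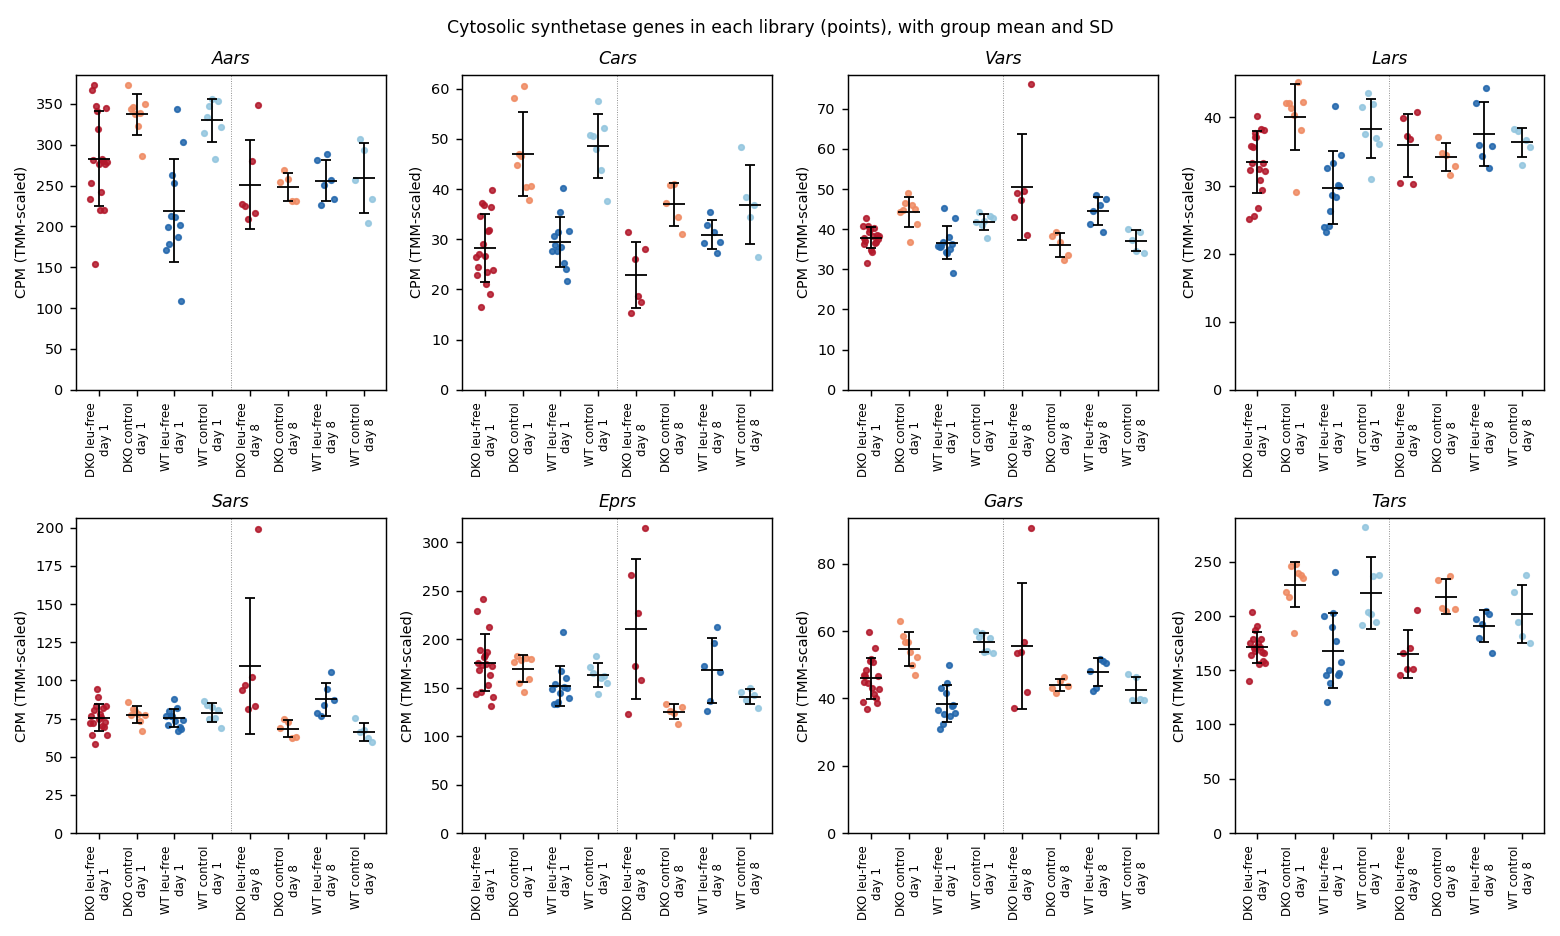
CPM (TMM-scaled) of 8 cytosolic synthetase genes in each library (points) of the 8 groups, with the group mean and SD; the dotted line separates day 1 from day 8. Cars and Tars are lower on leucine-free food in DKO livers at both days, Sars and Eprs are higher at day 8, and DKO leucine-free replicate 6 is the top point of Sars (199 CPM), Gars, Vars and Eprs at day 8.

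Tars2, the mitochondrial threonyl enzyme, moved opposite to Tars at day 8. It stood at 30.3, 37.1, 30.6, 33.5, 28.4 and 50.1 CPM in DKO leucine-free and 28.9, 29.2, 28.0, 26.6 and 26.4 CPM in DKO control livers, a change of 0.33 ± 0.10 (adjusted p = 0.0144, and 0.00498 to 0.133 over 21 alternatives). Leucine-free replicate 5 lay among the controls. Without DKO leucine-free replicate 6 the change was 0.20 and no longer called (adjusted p = 0.132). In WT livers Tars2 averaged 29.9 ± 1.38 CPM on leucine-free and 31.1 ± 2.03 CPM on control food (SD, n = 6 and 5; adjusted p = 0.802).

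**Figure D4:**
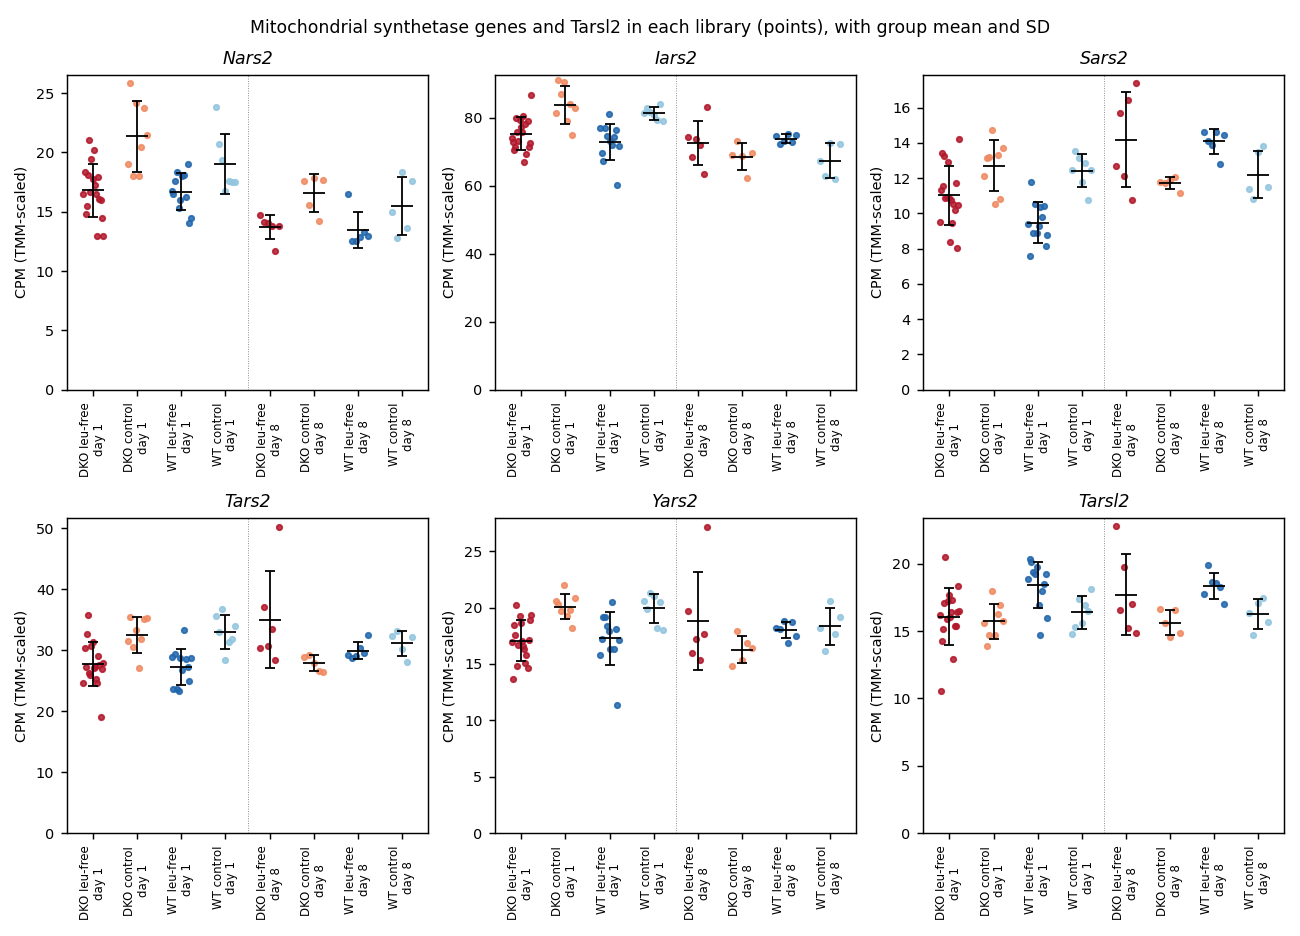
CPM (TMM-scaled) of 5 mitochondrial synthetase genes and of Tarsl2 in each library (points) of the 8 groups, with the group mean and SD; the dotted line separates day 1 from day 8. At day 1 the means of the leucine-free groups lie lower for the 5 mitochondrial genes, and at day 8 the highest Tars2 and Yars2 points, 50.1 and 27.2 CPM, are DKO leucine-free replicate 6.

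A single library weighed on the day 8 result. DKO leucine-free replicate 6 held the highest value of its group for 25 of the 38 genes. Without it 4 cytosolic genes rose and 3 fell in DKO livers at day 8, and edgeR called 0 mitochondrial genes; with it, the counts were 7, 3 and 1. DKO control replicate 1 mattered as much for the number of calls, since 7 synthetase genes of 38 were called without it, against 11 with it. At day 1, WT leucine-free replicate 11 held the lowest value of its group for 15 genes and DKO control replicate 5 for 20.

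The response to leucine-free food at day 8 was set against the response at day 1 within each genotype, which asks whether the effect changed with time. In DKO livers the day 8 effect was the higher one for 7 cytosolic genes, Vars, Sars, Eprs, Gars, Kars, Qars and Hars, and for 4 mitochondrial genes, Tars2, Sars2, Yars2 and Iars2, and lower for 0. In this comparison 8.84% of all genes were called, 5.29% with a higher day 8 effect. In WT livers it was higher for 4 cytosolic genes, Gars, Mars, Nars and Vars, and 2 mitochondrial genes, Sars2 and Iars2, and lower for 0, where 1.64% of all genes were called, 0.863% with a higher day 8 effect. The median difference was 0.32 in DKO and 0.38 in WT livers for the cytosolic genes, 0.24 in DKO and 0.18 in WT livers for the mitochondrial genes, and 0.00 over all genes in each genotype.

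The differences were 0.71 ± 0.11 for Vars, 0.72 ± 0.15 for Sars and 0.70 ± 0.17 for Eprs in DKO livers (adjusted p = 1.83e-05, 0.000677 and 0.00471). In WT livers they were 0.73 ± 0.15 for Gars and 0.72 ± 0.16 for Mars (adjusted p = 0.00739 and 0.0127). The control levels moved too: in DKO control livers Aars averaged 248.5 ± 16.8 CPM at day 8 and 337 ± 24.99 CPM at day 1 (SD, n = 5 and 8), and in WT control livers Gars averaged 42.6 ± 3.93 CPM at day 8 and 56.7 ± 2.81 CPM at day 1 (SD, n = 5 and 7). Day and any difference in handling between the days cannot be told apart in these levels. Iars2, with 0.24 in DKO and 0.29 in WT livers, was the least firm of these calls, lost under 9 of 21 alternatives in DKO and 10 of 21 in WT livers. In DKO livers Sars2 and Yars2 were no longer called without DKO leucine-free replicate 6 (adjusted p = 0.0557 and 0.0741). In WT livers 2 of the 6 genes, Gars and Mars, were called without WT control replicate 2. The WT call of Vars was also lost when control replicate 3, 4 or 5 or leucine-free replicate 3 was dropped (adjusted p = 0.0545 to 0.0789), and that of Nars when control replicate 5 or leucine-free replicate 1 was (adjusted p = 0.0561 and 0.065).

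DKO and WT livers on the same food differed in few synthetase genes. On leucine-free food at day 1, Aars and Gars were higher in DKO livers and Tarsl2 lower, and edgeR called 0 of the 17 mitochondrial genes, of which 5 had an unadjusted p under 0.05, DESeq2 called 1 lower, and limma voom 2 higher and 1 lower. In this comparison 3.7% of all genes were called, 1.87% higher and 1.83% lower. Aars averaged 283 ± 58.2 CPM in DKO and 219 ± 63.0 CPM in WT leucine-free livers (SD, n = 18 and 12), a difference of 0.37 ± 0.10 (adjusted p = 0.0291, and 0.00342 to 0.128 over 10 alternatives). Gars averaged 46.0 ± 6.10 CPM in DKO and 38.4 ± 5.46 CPM in WT leucine-free livers, a difference of 0.26 ± 0.07 (adjusted p = 0.0354, and 0.00415 to 0.0594). The spreads of the genotypes overlapped widely for both genes. Tarsl2 averaged 16.1 ± 2.14 CPM in DKO and 18.4 ± 1.74 CPM in WT leucine-free livers, a difference of -0.20 ± 0.06 (adjusted p = 0.0447, and 0.0229 to 0.143).

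On leucine-free food at day 8 the gene called by edgeR was Qars, at 59.0 ± 6.15 CPM in DKO and 49.7 ± 1.98 CPM in WT livers (SD, n = 6 each), where 2.06% of all genes were called, 1.44% higher. With limma voom Qars was not called (adjusted p = 0.0685), and 1 other cytosolic gene was called lower. DESeq2 called 1 cytosolic gene higher and 1 mitochondrial gene lower. The difference was 0.25 ± 0.07 (adjusted p = 0.03, and 0.0115 to 0.151 over 22 alternatives). The call ended when DKO replicate 2 or 6 or WT replicate 1, 3, 4 or 5 of these groups was dropped (adjusted p = 0.0534 to 0.120). On control food edgeR called 0 of 38 genes at day 1, where 0.881% of all genes were called, and 0 of 38 at day 8, where 0.0532% were called. At an unadjusted p under 0.05 there were 1 and 2, and DESeq2 and limma voom called 0 at both days. Whether the diet effect differed between the genotypes was tested directly: edgeR called 0 of 38 genes at day 1 (0.373% of all genes called; 2 at an unadjusted p under 0.05) and 0 of 38 at day 8 (0.0414% of all genes; 7 at an unadjusted p under 0.05), and DESeq2 and limma voom called 0 at both days. A gene called in DKO and not in WT livers, such as Eprs at day 8, is therefore not shown to respond differently. The interaction of Eprs at day 8 was 0.49 ± 0.20 (adjusted p = 0.389), that of Qars 0.27 ± 0.10 (adjusted p = 0.329) and that of Tars2 0.39 ± 0.14 (adjusted p = 0.326).

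Lars and Lars2 encode the enzymes for leucine, the amino acid removed from the food. Beyond the day 1 fall given above, Lars (ENSMUSG00000024493) had no called change. At day 8 it stood at 30.4, 39.9, 37.4, 36.8, 30.2 and 40.8 CPM in DKO leucine-free and 37.1, 34.7, 34.6, 31.6 and 32.9 CPM in DKO control livers, a change of 0.07 ± 0.12 (adjusted p = 0.719). The WT livers averaged 37.6 ± 4.65 CPM on leucine-free and 36.4 ± 2.13 CPM on control food (SD, n = 6 and 5; adjusted p = 0.871). The diets overlapped in both genotypes.

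Lars2 (ENSMUSG00000035202, chr9:123366927-123462666, plus strand, GRCm38) ran from 36.3 to 1181 CPM over the libraries, far more than any other member, and its extremes did not follow the groups. WT leucine-free replicate 3 at day 8 held 1181 CPM, against 42.5 to 69.4 CPM in the other 5 libraries of its group. WT control replicates 1 and 3 at day 1 held 679 and 557 CPM, against 37.5 to 58.2 CPM in the other 5. DKO leucine-free replicate 2 at day 1 held 448 CPM, and the median of that group was 48.6 CPM. Group medians lay between 46.3 and 78.4 CPM.

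The Lars2 level moved with Gm42418, a gene annotated as lincRNA (chr17:39846958-39848788, plus strand) in a stretch of rRNA-like sequence, which ran from 230.5 to 9765 CPM. Over the 67 libraries the deviations of log2 CPM from the group means had Pearson's r = 0.990 and Spearman's rho = 0.966 (permutation p = 1e-05 for each, the smallest that 100000 resamples can give; adjusted p = 2.7e-05 over 8 relations). Without the 2 libraries farthest from the median r was 0.986. Within the groups of 6 or more libraries r ran from 0.698 in DKO leucine-free livers at day 8 (exact permutation p = 0.14, n = 6) to 0.999. Gm42418 was chosen after its values were seen; the deviations of the summed level of the listed rRNA-like genes had r = 0.704 and rho = 0.55 with those of Lars2 (permutation p = 1e-05 for each, adjusted p = 4e-05 and 8e-05 over 8 relations), and r was 0.584 without the 2 farthest libraries. Within the groups of 6 or more libraries this r ran from -0.419 to 0.97. The sum included the mitochondrial rRNA genes mt-Rnr1 and mt-Rnr2, with medians of 970 and 1084 CPM, beside 415 CPM for Gm42418. Their own deviations had r = 0.028 and -0.0 with those of Lars2. For Gm26917 r was 0.486, and for Gm15564, at a median of 0.923 CPM, it was 0.961. Among the other 37 members r of the deviations with Gm42418 ran from -0.248 to 0.288. Of all 38 members, Lars2 alone shared a run of at least 25 bases with a transcript of Gm42418, Gm26917 or Gm15564. It shared a run of 52 bases with Gm15564 and none with Gm42418. Whether reads of rRNA were counted to Lars2 was not tested.

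**Figure D5:**
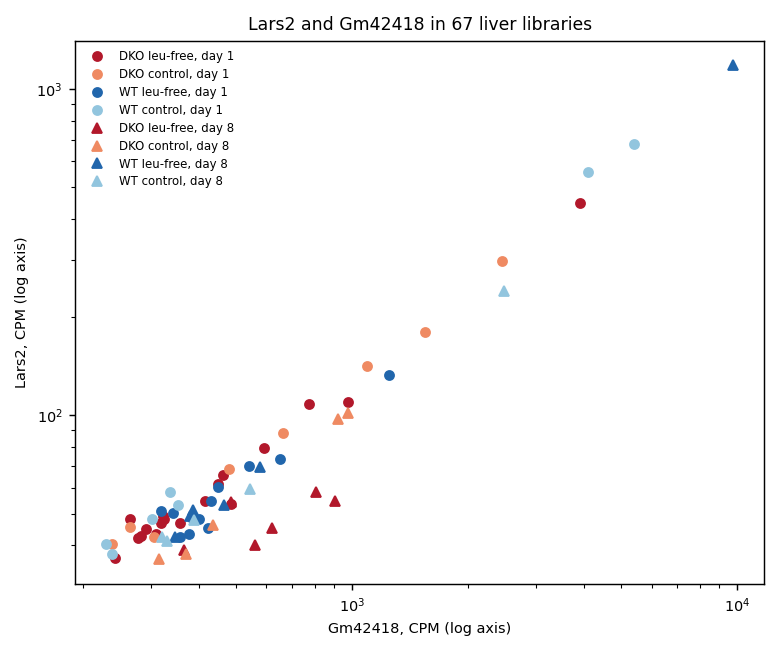
Lars2 against Gm42418 in the 67 libraries, both in CPM on log axes, with colour for genotype and diet and shape for day. The points rise together up to WT leucine-free replicate 3 of day 8 at 1181 and 9765 CPM, and libraries of several groups lie along the upper part.

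Lars2 was called in WT livers at day 1, with a change of -1.81 ± 0.56 (adjusted p = 0.0149), which is the largest of any member. The medians, 50.6 CPM in WT leucine-free and 53.2 CPM in WT control livers, were close, and the difference of the means, 60.0 and 210.5 CPM, rests on WT control replicates 1 and 3. With limma voom the change was -0.74 and not called (adjusted p = 0.368). With the level of Gm42418 in the model, an alternative chosen after the values were seen, it was -0.34 ± 0.07 (adjusted p = 0.000475; 0.000475 to 0.368 over 11 alternatives). In that model the diet effect in WT livers was also higher at day 8 than at day 1 (0.47 ± 0.12, adjusted p = 0.0352). Lars2 was lower in DKO leucine-free than in DKO control livers at day 8 (-0.37 ± 0.09, adjusted p = 0.00284) and lower in DKO than in WT leucine-free livers at day 8 (-0.63 ± 0.09, adjusted p = 1.83e-05), neither of which was called without it (adjusted p = 0.752 and 0.076). The plain medians for DKO livers at day 8 were 49.6 CPM on leucine-free and 46.3 CPM on control food, while Gm42418 stood at 367 to 905 CPM (median 589.5) on leucine-free and 315 to 974 CPM (median 435) on control food.

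The Tarsl2 response to leucine-free food was not called in any of the 4 diet comparisons, with estimates of 0.03 ± 0.07 in DKO and 0.17 ± 0.08 in WT livers at day 1 and 0.18 ± 0.10 in each genotype at day 8. Its level per length, 2.50 FPKM, was far below that of Tars, and its highest group mean was 1.18 times its lowest. Neither trait was particular to it: 3 cytosolic and 8 mitochondrial genes were also called in no diet comparison, and 5 genes of the 2 classes had a smaller ratio between group means. Tarsl2 shares 120 exon bases with Tm2d3 on the same strand.

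Wars, the tryptophanyl enzyme, is known as a gene induced by interferon, and it was set beside the interferon-responsive genes. Of 20 such genes, 17 fell in DKO and 13 in WT livers at day 8, among them Ifit3, an antiviral protein gene (-1.83 ± 0.24 in DKO and -1.50 ± 0.24 in WT livers), and Irf7, a transcription factor gene (-1.37 ± 0.18 in DKO and -0.91 ± 0.18 in WT livers). At day 1, 6 of the 20 fell in DKO livers and 0 rose, and in WT livers 4 fell and 1 rose. Of all genes tested, 23.5% in DKO and 19.5% in WT livers were called at day 1. At day 8 the shares were 20.6% in DKO and 5.25% in WT livers. The day 1 counts lay near these shares, and the day 8 counts above them. Wars was not called in any diet comparison. At day 8 it stood at 14.3, 21.1, 17.9, 21.2, 16.8 and 30.4 CPM in DKO leucine-free and 19.52, 19.4, 19.2, 21.01 and 21.5 CPM in DKO control livers (0.01 ± 0.14, adjusted p = 0.971). The WT livers averaged 19.9 ± 0.704 CPM on leucine-free and 20.6 ± 2.71 CPM on control food (SD, n = 6 and 5; adjusted p = 0.879). The leucine-free libraries surrounded the control libraries in DKO livers.

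Genes known as targets of the integrated stress response were counted beside the synthetases. At day 1, of 30 tested, 11 rose and 2 fell in DKO livers (median 0.36), where 23.5% of all genes were called. In WT livers 3 rose and 4 fell (median -0.11), which is near the 19.5% called over all genes. The difference between these genes and the synthetases was not tested. Atf5, a transcription factor gene, rose by 0.93 ± 0.16 and Fgf21, a hormone gene, by 3.29 ± 0.56 in DKO livers, while Psph, of serine synthesis, fell by 0.70 ± 0.09. In WT livers Psph fell by 0.88 ± 0.11 and Mthfd2, of mitochondrial folate metabolism, by 1.31 ± 0.27, and Slc3a2, a subunit of amino acid transporters, rose by 0.40 ± 0.09. Atf4 RNA itself was not called in DKO (-0.19 ± 0.11) and fell in WT livers (-0.32 ± 0.12, adjusted p = 0.0455).

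At day 8, 12 of the 30 rose and 2 fell in DKO livers (median 0.51), the group in which 7 cytosolic synthetases rose. In this comparison 20.6% of all genes were called, 11.1% higher. Trib3, a pseudokinase gene, rose by 3.13 ± 0.57, Psat1, of serine synthesis, by 2.72 ± 0.51 and Pck2, a mitochondrial enzyme that makes phosphoenolpyruvate, by 0.94 ± 0.20. Atf5 stood at 1214 to 3378 CPM (median 1976) in DKO leucine-free and 653 to 808 CPM (median 804) in DKO control livers, without overlap. In WT livers 2 of the 30 rose, Atf5 (1.13 ± 0.22) and Eif4ebp1, an inhibitor of translation initiation (0.33 ± 0.08), and 0 fell. That count is near the 5.25% called over all genes in WT livers at day 8. On leucine-free food for 1 day, 10 of the 30 exceeded their WT level in DKO livers, beside 2 of the 20 cytosolic synthetases. Of all genes 3.7% were called between these groups, 1.87% higher. The listed genes include Sesn2, which the labels name as the DKO gene. Its counts were not lower in DKO libraries (median 17.4 CPM, against 12.9 CPM in WT libraries). Eif2ak4, the kinase GCN2, was lower on leucine-free food in DKO livers at day 1 (-0.33 ± 0.07, adjusted p = 0.000218) and was not called in the other 3 diet comparisons.

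Scaffold and partner genes were few, so their counts are read beside the share of all genes called for diet. That share was 23.5% in DKO and 19.5% in WT livers at day 1, and 20.6% and 5.25% at day 8. Of the 3 scaffold genes of the multi-synthetase complex, 2 rose in DKO livers at day 8: Aimp1 by 0.68 ± 0.09 (adjusted p = 3.88e-08) and Aimp2 by 0.47 ± 0.14 (adjusted p = 0.0118). Aimp1 stood at 29.3 to 42.1 CPM (median 34.2) in DKO leucine-free and 19.95 to 25.3 CPM (median 20.6) in DKO control livers, without overlap. Aimp1 also rose in WT livers at day 1, by 0.26 ± 0.07, where all 17 called synthetases fell. Of 10 mitochondrial translation factor genes, 3 fell in each genotype at day 1, near the share over all genes. Among them were Tsfm (-0.50 ± 0.08 in DKO and -0.48 ± 0.09 in WT livers) and Gfm1 (-0.33 ± 0.08 in DKO and -0.53 ± 0.09 in WT livers), both of mitochondrial elongation. Of the 3 genes that make mitochondrial glutaminyl-tRNA by transamidation, in place of a mitochondrial glutaminyl enzyme, Qrsl1 fell in WT livers at day 1 (-0.55 ± 0.17), and no further call was made in the diet comparisons. Of 4 genes for removal of wrongly charged amino acids, Prorsd1 fell by 0.22 to 0.27 in both genotypes at day 1 and in DKO livers at day 8, and Dtd1 rose in DKO livers at day 8 (0.45 ± 0.16).

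Markers of other liver cells moved with some of these comparisons. At day 8, where the cytosolic genes split in DKO livers, 8 of 10 macrophage markers fell in DKO livers, with a summed level of 165 to 629.5 CPM on leucine-free and 580.1 to 761 CPM on control food. In WT livers 3 of the 10 fell, with 259 to 532 CPM on leucine-free and 541 to 705 CPM on control food. None of the 10 was at 0 in any library. Of 5 erythroid markers tested, 3 fell in DKO livers at day 1 and 3 at day 8, with summed levels of 46.6 to 168 CPM and 34.4 to 163 CPM on leucine-free food, against 79.7 to 154 CPM and 109.7 to 234.5 CPM on control food. In WT livers 1 of the 5 fell at each day. Of 7 hepatocyte markers, 3 rose and 2 fell in DKO livers at day 1, and 2 rose and 1 fell in WT livers. In the comparison of the diet effect between the days in DKO livers, 5 of the 10 macrophage markers had a lower day 8 effect. In DKO against WT livers on leucine-free food at day 1, where Aars, Gars and Tarsl2 were called, 3 of the 5 erythroid and 2 of the 7 hepatocyte markers were lower. The lymphocyte, neutrophil, endothelial, stellate and cholangiocyte lists had at most 3 called markers in any diet comparison. Over all genes tested, 23.5% in DKO and 19.5% in WT livers were called for diet at day 1, and 20.6% and 5.25% at day 8. For diet by day in DKO livers 8.84% of all genes were called, and for genotype on leucine-free food at day 1 3.7%. The part of these cell types in the synthetase results was not tested.

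Cytosolic synthetase RNAs tended to vary together from library to library, and pairs with mitochondrial genes did so less. Over the 67 libraries, deviations of log2 CPM from the group means had a median Pearson's r of 0.399 over the 190 pairs of cytosolic genes, 0.153 over the 136 pairs of mitochondrial genes and 0.205 over the 340 mixed pairs. Values above 0 were found for 177, 105 and 266 of these pairs, and the lowest were -0.368, -0.273 and -0.375. The highest were Eprs with Gars (0.809), Aars with Yars (0.803) and Farsb with Tars2 (0.791). The points of each pair share library, depth and RNA, and the values are given as a description without a test. Pairs of other genes were not measured, so the values are not shown to be particular to synthetases.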

How the data were processed

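Liver RNA of 67 mice was measured as gene counts. The authors deposited raw counts per gene for each library; per the submitters' processing notes, STAR 2.7.1a, featureCounts 2.0.1 and DESeq2 1.26.0 were used, and per the labels' protocols the libraries came from a directional kit on frozen liver. Whether strand entered the counting: not given in the sources used here. Each of the 55450 identifiers was found in GENCODE M21 (GRCm38). A whole-series table (1 file) was not used.

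The counts were fitted with edgeR 4.0.16 (quasi-likelihood, robust, TMM scaling; R 4.3.3) over all 67 libraries with 8 group terms, on the 16908 genes that passed filterByExpr, for 12 comparisons, with Benjamini-Hochberg adjustment over all genes tested and a threshold of 0.05. CPM values are TMM-scaled, and FPKM divides them by the length of the merged exons. Alternatives used limma 3.58.1 (voom with quality weights) and DESeq2 1.42.0, other scalings and filters, only the groups compared, and libraries left out. Correlations among the synthetase genes used log2(CPM + 0.5), as did the listed rRNA-like genes taken singly. Those of Lars2 with Gm42418 alone or with the summed rRNA-like genes used log2 CPM. Tables and plots used Python 3.11.15, numpy 2.4.6, pandas 2.3.3, scipy 1.17.1 and matplotlib 3.10.9.

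On simulated data with 200 changed genes among 16908, the fit recovered 54% of genes changed 1.5-fold and 79% of those changed 2-fold for diet in DKO livers at day 1, with 1.48% of calls false. For diet in DKO livers at day 8 it recovered 34% and 71%, with 6.25% of calls false. Changes under 1.5-fold were not simulated, so these shares do not apply to the smaller changes described here. In the data, far more genes were called in these comparisons, 23.5% at day 1 and 20.6% at day 8. Libraries held 22814668 to 56916009 counts. Mice carry separate numbers in the labels, and p-values measure the spread between them.

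The members and lists were chosen with earlier results of these data known. Genes given in full are Aars, Cars, Vars, Lars, Lars2, Tarsl2 and Wars, in each comparison up to 5 called cytosolic and 3 called mitochondrial genes with the smallest adjusted p, and called genes that moved against most of their class; from each pathway list up to 4 called genes with the smallest adjusted p are eligible. Values of 1 member and 1 cell type marker are not reported here, and plots cover 37 genes.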

Additional observations from a re-analysis of the deposited data

Results flagged for a closer look

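In 12 of 126 groups of values examined, 1 library lay far from the others of its group, by Dixon's gap test; chance alone marks about 5% of groups. DKO leucine-free replicate 6 at day 8 was the far library for Sars (199.4 CPM, others 81.5 to 102), Gars (90.68 CPM, others 37.2 to 56.7), Vars (76.18 CPM, others 38.5 to 49.5) and Yars2 (27.16 CPM, others 15.3 to 19.7). Nars2 was low in DKO leucine-free replicate 5 at day 8 (11.68 CPM, others 13.8 to 14.8). DKO control livers at day 1 held a low library for Kars and Lars in replicate 5 (61.27 CPM, others 69.1 to 74.6, and 29.08 CPM, others 38.2 to 45.2), for Nars in replicate 7 (132.1 CPM, others 165 to 193) and for Tars in replicate 4 (184.3 CPM, others 218 to 248). Lars2 was high in WT leucine-free replicate 3 at day 8 (1181 CPM, others 42.5 to 69.4) and in WT control replicate 1 at day 8 (240.4 CPM, others 41.2 to 59.6). Nars2 was high in WT leucine-free replicate 1 at day 8 (16.48 CPM, others 12.5 to 13.3).

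The effect of leucine-free food differed between day 8 and day 1, as day 8 minus day 1 on the log2 scale with edgeR's adjusted p, for these genes. In DKO livers the differences were 0.6969 for Eprs (0.00471), 0.5914 for Gars (0.00563), 0.3383 for Hars (0.0156), 0.3566 for Kars (0.000484), 0.3453 for Qars (0.0053), 0.7158 for Sars (0.000677) and 0.7139 for Vars (1.83e-05). Among the mitochondrial genes of DKO livers they were 0.2366 for Iars2 (0.0341), 0.4745 for Sars2 (0.0179), 0.5612 for Tars2 (0.00176) and 0.4473 for Yars2 (0.0134). In WT livers they were 0.7271 for Gars (0.00739), 0.7215 for Mars (0.0127), 0.5278 for Nars (0.0218), 0.4562 for Vars (0.0311), 0.2890 for Iars2 (0.0374) and 0.5968 for Sars2 (0.0175).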

How the results depend on the processing

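Of 59 results for single genes, 0 reversed under any alternative run; 61 of 590 values outside the leave-one-out fits and 55 of 309 with a day 8 library left out were no longer called. The number of synthetase genes called for diet in DKO livers at day 1 was 20, against 12 with no expression filter and 9 with the replicate block. For diet in DKO livers at day 8 it was 11, against 7 with no filter, and 7 to 14 with 1 library left out. For diet in WT livers at day 8 it was 1, against 3 with limma voom, 0 with total counts, 0 with no filter, 2 with only the groups compared, 0 with the replicate block and 2 without 3 libraries that stood apart (replicates 11 and 12 of the WT leucine-free group at day 1, and replicate 6 of the DKO leucine-free group at day 8), and 0 to 1 with 1 library left out. For genotype on leucine-free food at day 1 it was 3, against 7 with limma voom, 6 with total counts, 0 with no filter, 0 with only the groups compared, 7 without the 3 libraries and 5 without the library with no Xist counts. For genotype on leucine-free food at day 8 it was 1, against 2 with DESeq2, 0 with no filter, 0 with only the groups compared, 0 without the 3 libraries, and 0 to 2 with 1 library left out. In that comparison limma voom also called 1 gene, but it was lower in DKO livers and was not Qars. With 1 library left out, diet by day gave 8 to 13 in DKO livers (11 with all) and 2 to 7 in WT livers (6 with all). The correlation of the levels of Lars2 and the summed rRNA-like genes, mitochondrial rRNA included, was 0.643, against 0.465 without the 2 farthest libraries. The cause of these changes was not tested. The labels do not say whether equal mouse numbers in different groups mark related mice. In 0 of 28 pairs of groups was every correlation of same-numbered libraries over 0.1 (range -0.4 to 0.478). The median was 0.24 between WT leucine-free and WT control livers at day 1. With so few libraries in a pair of groups, these values cannot decide whether the numbers carry a shared factor. With 5 or 6 libraries a group at day 8, small changes may go uncalled.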
